A study of Homo sapiens with 12 samples.

Results

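The genes described here carry glucose into the cell, break it down to pyruvate, turn pyruvate into lactate, and let pyruvate enter the mitochondrial tricarboxylic acid cycle. They were taken by name: 32 genes were listed by their place in the pathway. The rule used no measured value, but the list was chosen with earlier results of these data known. Of the 32 genes, 30 were matched to at least 1 probe set, among 19775 genes measured in all. SLC16A1 and SLC16A3 encode lactate carriers of the plasma membrane. They had no probe set listed under that single symbol, as the matching required, and were not analysed here. Expression was measured on 12 oligonucleotide arrays of PC9 cells, an EGFR-mutant human lung adenocarcinoma line that depends on EGFR signalling. The 12 arrays formed 4 groups of 3: cells carrying pre-miR-371 and given 2 µM erlotinib, an inhibitor of the EGFR kinase, for 24 h; pre-miR-371 cells given DMSO, the solvent; cells carrying the GFP vector and given erlotinib; and GFP vector cells given DMSO. All 4 groups came from PC9 cells grown to near confluence before treatment, and 1 stable line of each kind was used, so an effect of pre-miR-371 and any other difference between the 2 lines cannot be told apart. The study's statistical methods call its replicates biological in general, but the labels do not name the culture behind each array, and the p-values below measure only the spread between these samples.

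Glycolysis splits each glucose into a pair of pyruvate molecules through a chain of cytosolic enzymes, and its pace is set mainly by glucose carriers, hexokinases and phosphofructokinase. Pyruvate then either becomes lactate, through lactate dehydrogenase, or enters mitochondria, where the pyruvate dehydrogenase complex converts it to acetyl-CoA. The 4 pyruvate dehydrogenase kinases switch that complex off by phosphorylating it, so their level bears on the choice between lactate and mitochondrial oxidation. Tumours that depend on a receptor tyrosine kinase often take up much glucose, and signalling downstream of the receptor is known to sustain the transcription of several of these enzymes.

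The pre-miR-371 hairpin gives rise to a pair of mature miRNAs, and their sequences are shown because they are what sets the pre-miR-371 line apart from the GFP vector line by design. Both are given 5′ to 3′ from RefSeq (GRCh38.p14), where miR-371 is named miR-371a, with the seed (bases 2 to 8) in capitals. They lie on the plus strand at chr19:53787716-53787738 (the 3p arm) and chr19:53787680-53787699 (the 5p arm), and their seeds differ from each other.
hsa-miR-371a-3p: aAGUGCCGccaucuuuugagugu
hsa-miR-371a-5p: aCUCAAACugugggggcacu

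Values are the deposited log2 expression values, 1 probe set per gene, and a difference of 1 on this scale is a 2-fold difference. Each fold change comes with its standard error (SE) and an adjusted p from limma, Benjamini-Hochberg over all 19775 genes, and a gene was called where that p was under 0.05 and the fold over 1.5. "Rose" and "fell" are used of genes with an adjusted p under 0.05. Because the cells were measured in bulk, a smaller share of cells with a transcript and less of it per cell cannot be told apart. Array medians lay between 4.31 and 4.41, and each array correlated with the others of its group at a mean r of 0.996 to 0.9973. The drug check fell in both lines: DUSP6, a phosphatase gene induced by ERK signalling, had 3.20, 4.04 and 3.51 in pre-miR-371 cells given erlotinib, against 9.44, 9.63 and 9.66 in DMSO, and 3.58, 3.40 and 3.06 in GFP vector cells given erlotinib, against 9.42, 9.17 and 9.18 in DMSO. All 10 of the 10 MAPK output genes checked were lower in erlotinib in each line. The 6 epithelial markers had group means of 10.42 to 13.66, while those of the fibroblast markers ran from 2.71 to 7.07 with 1 of 6 above 6, and those of the 5 leukocyte markers measured from 2.78 to 5.96. The leukocyte list averaged 4.04 in pre-miR-371 cells given erlotinib and 3.72 in DMSO, and 3.91 in GFP vector cells given erlotinib and 3.69 in DMSO, with PTPRC, which defines leukocytes, between 2.78 and 2.86 in all groups. The endothelial list averaged 5.66 in pre-miR-371 cells given erlotinib and 5.28 in DMSO, and 5.65 in GFP vector cells given erlotinib and 5.20 in DMSO, with PECAM1 its highest gene at up to 9.17. The excess of the 3′ over the 5′ control probe sets of ACTB, a sign of RNA quality, was 0.42 to 0.51 log2 in pre-miR-371 cells given erlotinib, 0.22 to 0.33 in pre-miR-371 DMSO, 0.23 to 0.31 in GFP vector cells given erlotinib and 0.03 to 0.13 in GFP vector DMSO. The ACTB excess thus moved both with the drug and with the line. For GAPDH the same excess was 0.13 to 0.16 log2 in pre-miR-371 cells given erlotinib and 0.06 to 0.09 in pre-miR-371 DMSO. It was 0.08 to 0.11 in GFP vector cells given erlotinib and 0.05 to 0.11 in GFP vector DMSO. Only pre-miR-371 cells given erlotinib stood apart for GAPDH. The part of RNA quality in the results was not tested.

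Erlotinib lowered most of the enzymes between glucose and lactate and moved the pyruvate dehydrogenase kinases in both directions. In pre-miR-371 cells 9 members were called lower and 5 higher, against 9.33% and 12.6% of all genes. In GFP vector cells 10 were called lower and 5 higher, against 11.7% and 14.1% of all genes. Without the fold limit, 20 members fell and 8 rose in pre-miR-371 cells, where 22.2% of all genes fell and 24.8% rose, and 19 fell and 7 rose in GFP vector cells, where 23.4% fell and 26.5% rose. The median fold change over the 30 members was -0.37 log2 in pre-miR-371 cells, against -0.03 over all genes, and -0.38 log2 in GFP vector cells, against 0 over all genes. Among genes with a mean value of at least 10, the 14 members had medians of -0.43 in pre-miR-371 cells and -0.47 in GFP vector cells, while all 1760 such genes had medians of -0.07 in pre-miR-371 cells and -0.10 in GFP vector cells. The arrays of the 2 treatments did not overlap for 22 members that were lower and 8 that were higher in erlotinib in pre-miR-371 cells, against 27.8% and 28.1% of all genes, and for 20 that were lower and 7 that were higher in GFP vector cells, against 25.7% and 28.5%.

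The calls fell on the same genes in both lines with 1 exception. SLC2A3, ALDOC, PDK2, PDK3 and PDK4 were called higher in each line, and HK1, HK2, GPI, PFKM, PFKP, PGAM1, ENO1, ENO2 and PDK1 were called lower in each. PDHA1 was called lower in GFP vector cells, with a fold of 1.51, and missed the fold limit in pre-miR-371 cells, with a fold of 1.47. SLC2A1 and PFKL passed the adjusted p limit in neither line. The 2 responses were measured on different arrays, the GFP vector and pre-miR-371 cells each having its own DMSO arrays.

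**Figure D1:**
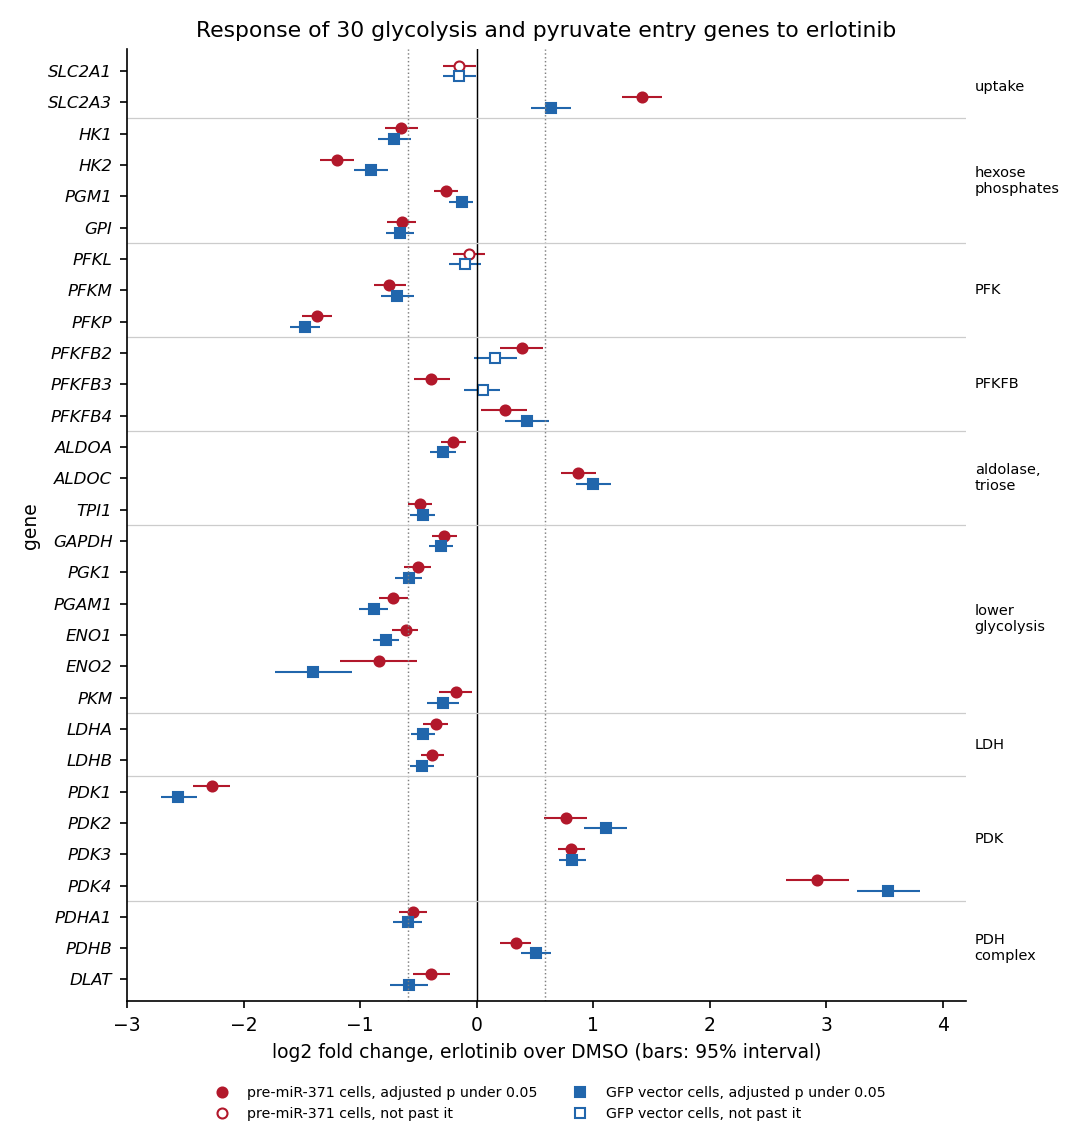
The log2 fold change of erlotinib over DMSO is plotted for the 30 members in order of their place in the pathway, in pre-miR-371 cells and in GFP vector cells. Bars are 95% intervals, filled marks have an adjusted p under 0.05, and dotted lines stand at a fold of 1.5 (0.58 log2 either way); most marks lie left of 0, PDK1 farthest left (-2.27 in pre-miR-371 cells and -2.56 in GFP vector cells) and PDK4 farthest right (2.92 in pre-miR-371 cells and 3.53 in GFP vector cells).

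Of the glucose carriers, SLC2A1 (GLUT1) did not pass the test and SLC2A3 (GLUT3) rose. SLC2A1 had a log2 fold change of -0.15 in each line (adjusted p = 0.0719 in pre-miR-371 cells and 0.0709 in GFP vector cells, limma), although its erlotinib arrays lay below its DMSO arrays in both. SLC2A3 had 7.94, 7.95 and 8.20 in pre-miR-371 cells given erlotinib, against 6.61, 6.51 and 6.72 in DMSO. The GFP vector cells gave 6.88, 6.84 and 6.89 in erlotinib, against 6.17, 6.26 and 6.25 in DMSO. The 4 groups of arrays did not overlap, and the pre-miR-371 cells were higher than the GFP vector cells under either treatment. The rise was 2.68-fold in pre-miR-371 cells (1.42 log2, SE 0.08, adjusted p = 1.59e-08) and 1.56-fold in GFP vector cells (0.64 log2, SE 0.08, adjusted p = 1.52e-05). SLC2A14 is a close copy of SLC2A3; probe sets assigned to both were not used, and any signal from SLC2A14 in those of SLC2A3 was not tested.

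All 4 genes that phosphorylate glucose or interconvert hexose phosphates fell in both lines. HK2, the inducible hexokinase bound to mitochondria, had 8.27, 8.16 and 8.21 in pre-miR-371 cells given erlotinib, against 9.51, 9.40 and 9.33 in DMSO. With the GFP vector, HK2 had 8.60, 8.62 and 8.47 in erlotinib, against 9.48, 9.43 and 9.50 in DMSO. The erlotinib arrays of each line lay well below their DMSO arrays, and those of pre-miR-371 cells were the lowest of all. HK2 fell 2.29-fold in pre-miR-371 cells (adjusted p = 1.56e-08) and 1.88-fold in GFP vector cells (adjusted p = 1.29e-07).

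HK1, the hexokinase present in most tissues, had 10.04, 9.93 and 9.83 in pre-miR-371 cells given erlotinib, against 10.63, 10.55 and 10.56 in DMSO. Its GFP vector arrays read 9.93, 9.98 and 9.82 in erlotinib, against 10.68, 10.60 and 10.58 in DMSO. The arrays of the 2 treatments did not overlap, and the log2 fold changes were -0.65 in pre-miR-371 cells and -0.71 in GFP vector cells. GPI, which converts glucose 6-phosphate to fructose 6-phosphate, had 10.89, 10.89 and 10.79 in pre-miR-371 cells given erlotinib, against 11.49, 11.50 and 11.51 in DMSO. GPI in GFP vector cells had 10.97, 10.98 and 10.88 in erlotinib, against 11.66, 11.60 and 11.54 in DMSO. The fall of GPI was of much the same size in each line, at -0.64 log2 (SE 0.06, adjusted p = 9.76e-07) in pre-miR-371 cells and -0.66 log2 (SE 0.06, adjusted p = 6.02e-07) in GFP vector cells. PGM1, which links glucose 6-phosphate to glycogen, moved less: it had 10.39, 10.46 and 10.43 in pre-miR-371 cells given erlotinib, against 10.71, 10.67 and 10.69 in DMSO. The corresponding GFP vector values were 10.60, 10.60 and 10.56 in erlotinib, against 10.70, 10.73 and 10.72 in DMSO. The log2 fold change of PGM1 was -0.26 in pre-miR-371 cells (adjusted p = 0.000589) and -0.13 in GFP vector cells (adjusted p = 0.0350). The GFP vector result of PGM1 missed the adjusted p limit on leaving out any 1 of the GFP vector erlotinib arrays.

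The 3 phosphofructokinase genes, which encode the committed step of glycolysis, did not move together. PFKP, the platelet form, had 9.36, 9.30 and 9.17 in pre-miR-371 cells given erlotinib, against 10.69, 10.66 and 10.61 in DMSO. GFP vector cells had PFKP values of 9.23, 9.29 and 9.26 in erlotinib, against 10.77, 10.70 and 10.71 in DMSO. Every erlotinib array lay more than a full log2 unit below every DMSO array. The fall was 2.59-fold in pre-miR-371 cells (adjusted p = 2.09e-09) and 2.77-fold in GFP vector cells (adjusted p = 8.69e-10). PFKM, the muscle form, had 8.22, 8.35 and 8.19 in pre-miR-371 cells given erlotinib, against 8.98, 9.06 and 8.95 in DMSO. Its values with the GFP vector were 8.46, 8.34 and 8.40 in erlotinib, against 9.13, 9.04 and 9.07 in DMSO. PFKM therefore fell by 0.75 log2 in pre-miR-371 cells and by 0.68 log2 in GFP vector cells, with no overlap of arrays. PFKL, the liver form, had fold changes of -0.07 log2 in pre-miR-371 cells (adjusted p = 0.433) and -0.10 log2 in GFP vector cells (adjusted p = 0.215).

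The PFKFB genes encode enzymes that make and degrade fructose 2,6-bisphosphate, the strongest activator of phosphofructokinase, and none of the 3 was called in either line. PFKFB3, the form with the highest kinase over phosphatase activity, had 7.0, 7.11 and 7.16 in pre-miR-371 cells given erlotinib, against 7.38, 7.47 and 7.58 in DMSO. For PFKFB3, GFP vector cells had 7.53, 7.40 and 7.48 in erlotinib, against 7.42, 7.50 and 7.36 in DMSO. Its erlotinib arrays thus lay below its DMSO arrays in pre-miR-371 cells (-0.39 log2, SE 0.07, adjusted p = 0.000569), while those of GFP vector cells overlapped (0.05 log2, adjusted p = 0.653). PFKFB4 rose by 0.24 log2 in pre-miR-371 cells (adjusted p = 0.0444) and by 0.43 log2 in GFP vector cells (adjusted p = 0.00119), the first of which was lost under 17 of the 23 alternative settings. PFKFB2 rose by 0.39 log2 in pre-miR-371 cells (adjusted p = 0.00192), and its fold change in GFP vector cells was 0.16 log2 (adjusted p = 0.134). The rise of PFKFB2 rested on its brightest probe set: the mean over all its probe sets gave -0.03 log2 (adjusted p = 0.707).

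The 2 aldolase genes moved apart. ALDOC, the brain-type aldolase that other tissues also use under stress, had 8.11, 8.0 and 7.86 in pre-miR-371 cells given erlotinib, against 7.14, 7.10 and 7.10 in DMSO. Its values in GFP vector cells were 8.23, 8.11 and 8.08 in erlotinib, against 7.12, 7.11 and 7.19 in DMSO. All erlotinib arrays lay above all DMSO arrays, by 1.83-fold in pre-miR-371 cells (0.87 log2, adjusted p = 3.90e-07) and 2.00-fold in GFP vector cells (1.00 log2, adjusted p = 8.60e-08). ALDOA, the main aldolase of most cells, fell by 0.20 log2 in pre-miR-371 cells and by 0.29 log2 in GFP vector cells. TPI1, which interconverts the triose phosphates, fell by 0.49 log2 in pre-miR-371 cells and by 0.46 log2 in GFP vector cells. ALDOC was the only member between hexokinase and lactate dehydrogenase that was called higher.

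All 6 genes of lower glycolysis, GAPDH, PGK1, PGAM1, ENO1, ENO2 and PKM, fell in both lines. PGAM1, a phosphoglycerate mutase, had 11.33, 11.39 and 11.44 in pre-miR-371 cells given erlotinib, against 12.02, 12.15 and 12.14 in DMSO. In GFP vector cells PGAM1 had 11.23, 11.13 and 11.14 in erlotinib, against 12.03, 12.09 and 12.03 in DMSO. The DMSO arrays of the lines overlapped and the erlotinib arrays of pre-miR-371 cells stayed above those of GFP vector cells, with log2 fold changes of -0.72 in pre-miR-371 cells (SE 0.06, adjusted p = 4.78e-07) and -0.88 in GFP vector cells (SE 0.06, adjusted p = 5.57e-08). ENO1, the widely used enolase, had 12.15, 12.16 and 12.07 in pre-miR-371 cells given erlotinib, against 12.73, 12.78 and 12.72 in DMSO. The GFP vector cells gave 11.86, 11.91 and 11.94 in erlotinib, against 12.65, 12.71 and 12.68 in DMSO. For ENO1 too the erlotinib arrays of pre-miR-371 cells lay above those of GFP vector cells, and the log2 fold changes were -0.61 in pre-miR-371 cells (adjusted p = 7.37e-07) and -0.78 in GFP vector cells (adjusted p = 6.58e-08). ENO2, the neuronal enolase, had 4.84, 4.48 and 4.29 in pre-miR-371 cells given erlotinib, against 5.58, 5.20 and 5.37 in DMSO. With the GFP vector, ENO2 had 4.21, 4.13 and 4.14 in erlotinib, against 5.85, 5.39 and 5.45 in DMSO. No arrays of the 2 treatments overlapped within a line, but ENO2 was dim throughout and its SE of 0.15 was the widest of the members (-0.84 log2 in pre-miR-371 cells, adjusted p = 0.000463, and -1.40 log2 in GFP vector cells, adjusted p = 5.11e-06).

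The other genes of lower glycolysis and the lactate dehydrogenases fell without reaching the fold limit in either line. PGK1, the earlier of the ATP-making steps, fell by 0.50 log2 in pre-miR-371 cells and by 0.58 log2 in GFP vector cells. GAPDH fell by 0.28 log2 in pre-miR-371 cells and by 0.31 log2 in GFP vector cells, and its separate control probe sets had fold changes of -0.25 to -0.32 log2 in pre-miR-371 cells and -0.26 to -0.33 log2 in GFP vector cells. PKM, which makes pyruvate, fell by 0.18 log2 in pre-miR-371 cells (adjusted p = 0.0369, lost under 10 of 23 alternative settings) and by 0.29 log2 in GFP vector cells (adjusted p = 0.00193). Of the lactate dehydrogenases, LDHA, which favours lactate formation, had 13.48, 13.52 and 13.55 in pre-miR-371 cells given erlotinib, against 13.86, 13.86 and 13.89 in DMSO. LDHA in GFP vector cells had 13.36, 13.34 and 13.36 in erlotinib, against 13.80, 13.83 and 13.82 in DMSO. The arrays did not overlap and the differences were narrow, at -0.35 log2 (SE 0.05, adjusted p = 3.99e-05) in pre-miR-371 cells and -0.46 log2 (SE 0.05, adjusted p = 3.22e-06) in GFP vector cells. LDHB fell by 0.38 log2 in pre-miR-371 cells and by 0.47 log2 in GFP vector cells.

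**Figure D2:**
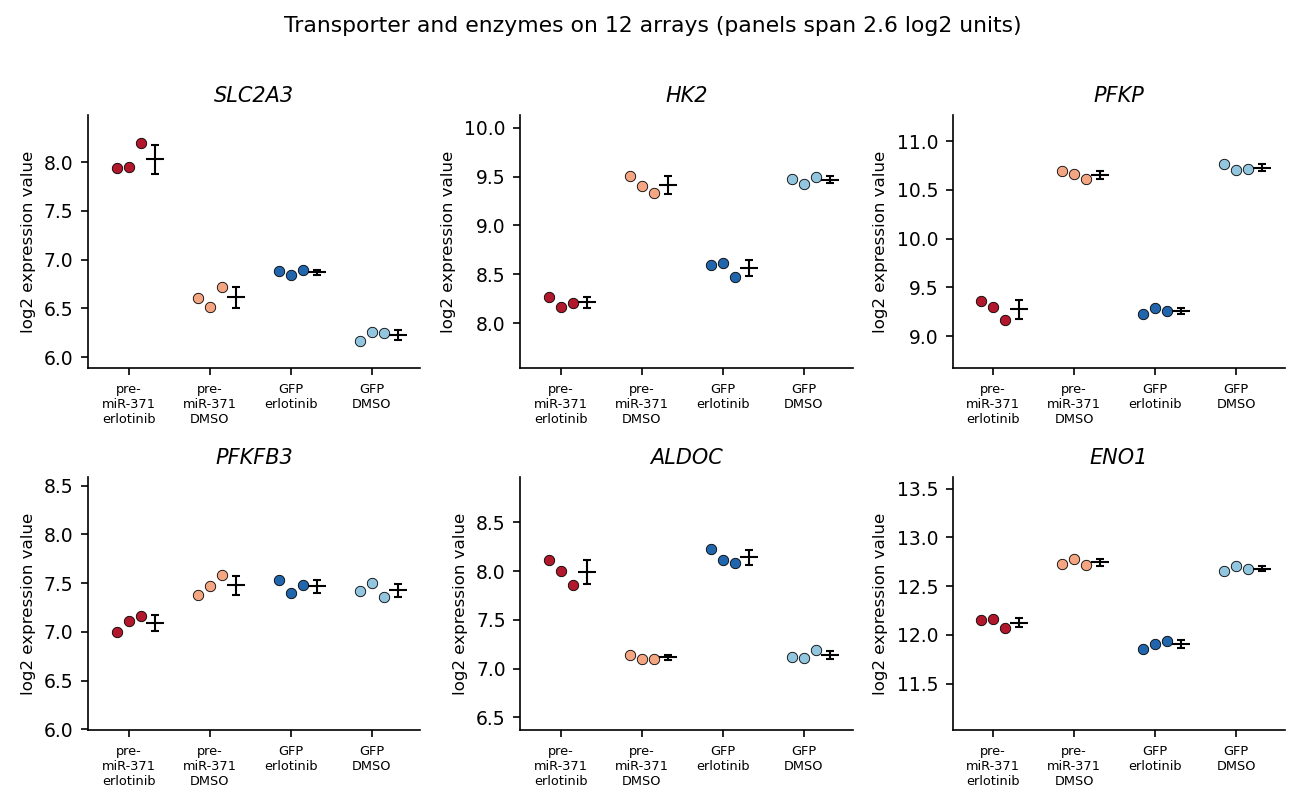
The log2 value of each array is plotted for SLC2A3, HK2, PFKP, PFKFB3, ALDOC and ENO1, with points for arrays and black marks for the mean and SD of 3, in pre-miR-371 cells (erlotinib, then DMSO) and GFP vector cells (erlotinib, then DMSO). The panels span the same number of log2 units; SLC2A3 stands highest and PFKFB3 lowest in pre-miR-371 cells given erlotinib (mean of SLC2A3 8.03), and HK2, PFKP and ENO1 are lower in erlotinib in both lines.

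The pyruvate dehydrogenase kinases held the widest changes of the members, and they went in opposite directions. PDK1, a target of hypoxia-inducible factor in many cells, had 7.21, 7.41 and 7.31 in pre-miR-371 cells given erlotinib, against 9.51, 9.65 and 9.59 in DMSO. GFP vector cells had PDK1 values of 7.01, 7.01 and 6.88 in erlotinib, against 9.57, 9.53 and 9.46 in DMSO. The DMSO arrays of the 2 lines overlapped, and every erlotinib array was more than 2 log2 units below them. PDK1 fell 4.83-fold in pre-miR-371 cells (-2.27 log2, SE 0.07, adjusted p = 1.38e-10) and 5.88-fold in GFP vector cells (-2.56 log2, SE 0.07, adjusted p = 3.74e-11).

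PDK4, the kinase known for its induction in fasting through PPAR and FOXO factors, had 6.61, 6.62 and 6.23 in pre-miR-371 cells given erlotinib, against 3.68, 3.44 and 3.58 in DMSO. Its GFP vector arrays read 6.66, 6.87 and 6.73 in erlotinib, against 3.15, 3.07 and 3.44 in DMSO. The DMSO values lay below the array medians and the erlotinib values above them. PDK4 rose 7.58-fold in pre-miR-371 cells (2.92 log2, SE 0.12, adjusted p = 1.80e-09) and 11.6-fold in GFP vector cells (3.53 log2, SE 0.12, adjusted p = 2.70e-10), and no detection calls were used, so how much of a DMSO value near 3 is background is unknown. Its other 2 probe sets were dim and moved far less, with fold changes of 0.30 and -0.07 log2 in pre-miR-371 cells and 0.26 and 0.24 log2 in GFP vector cells.

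PDK2, the widely expressed kinase, had 7.57, 7.49 and 7.42 in pre-miR-371 cells given erlotinib, against 6.67, 6.87 and 6.63 in DMSO. For PDK2, GFP vector cells had 7.94, 7.77 and 7.68 in erlotinib, against 6.70, 6.75 and 6.61 in DMSO. It rose 1.70-fold in pre-miR-371 cells (adjusted p = 7.83e-06) and 2.15-fold in GFP vector cells (adjusted p = 2.32e-07), with erlotinib arrays above DMSO arrays in each line. PDK3 had 8.38, 8.35 and 8.40 in pre-miR-371 cells given erlotinib, against 7.62, 7.53 and 7.55 in DMSO. The corresponding GFP vector values were 8.45, 8.44 and 8.53 in erlotinib, against 7.64, 7.62 and 7.69 in DMSO. On this probe set PDK3 rose 1.75-fold in pre-miR-371 cells (adjusted p = 6.70e-08) and 1.77-fold in GFP vector cells (adjusted p = 4.41e-08), whereas its other probe sets did not all follow. So 3 of the 4 kinase genes rose and 1 fell in each line on the probe set used.

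**Figure D3:**
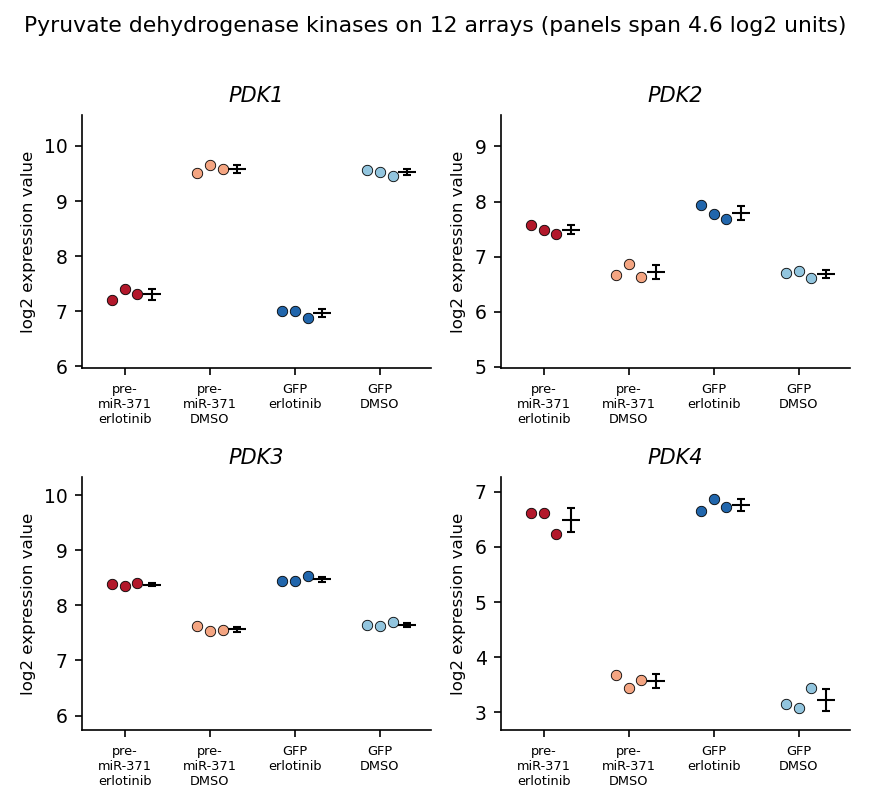
The log2 value of each array is plotted for PDK1, PDK2, PDK3 and PDK4, with points for arrays and black marks for the mean and SD of 3, in pre-miR-371 cells (erlotinib, then DMSO) and GFP vector cells (erlotinib, then DMSO). PDK1 averages 7.31 in erlotinib, against 9.58 in DMSO, in pre-miR-371 cells, and 6.96 in erlotinib, against 9.52 in DMSO, in GFP vector cells, and the other 3 kinases are higher in erlotinib, PDK4 most of all.

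Of the 3 measured genes of the pyruvate dehydrogenase complex itself, 2 fell and 1 rose. PDHA1, the E1 alpha subunit that the kinases phosphorylate, had 10.59, 10.58 and 10.54 in pre-miR-371 cells given erlotinib, against 11.08, 11.17 and 11.11 in DMSO. In GFP vector cells PDHA1 had 10.60, 10.61 and 10.55 in erlotinib, against 11.27, 11.16 and 11.12 in DMSO. Its erlotinib values were nearly the same in the 2 lines and below every DMSO value, with log2 fold changes of -0.55 in pre-miR-371 cells and -0.59 in GFP vector cells. DLAT, the E2 subunit, had 9.13, 9.03 and 9.16 in pre-miR-371 cells given erlotinib, against 9.43, 9.48 and 9.58 in DMSO. Its values with the GFP vector were 8.93, 8.74 and 8.92 in erlotinib, against 9.50, 9.47 and 9.35 in DMSO. DLAT fell by 0.39 log2 in pre-miR-371 cells and by 0.58 log2 in GFP vector cells. PDHB, the E1 beta subunit, went the other way and rose by 0.34 log2 in pre-miR-371 cells (adjusted p = 0.000504) and by 0.51 log2 in GFP vector cells (adjusted p = 1.19e-05).

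Between the 2 lines, more members passed the adjusted p limit in erlotinib than in DMSO. In DMSO limma called 0 members higher and 0 lower in pre-miR-371 cells, where 0.217% and 0.233% of all genes were called. At an unadjusted limma p under 0.05 there were 2 higher and 2 lower, with the share of all genes at that limit not counted. The study's methods name limma for the arrays and Student's t-test for most figures. That t-test also called 0 members with the fold limit, with its p adjusted or unadjusted. Of all 19775 genes it called 2 higher and 5 lower adjusted, and 43 higher and 47 lower unadjusted. Without the fold limit 1 member was higher and 0 lower, against 1.62% and 3.64% of all genes: SLC2A3, by 0.38 log2 (SE 0.08, adjusted p = 0.0189). This result missed the adjusted p limit under 6 of the 23 alternative settings, 4 of which left out a single DMSO array. The members' median difference was -0.02 log2 in DMSO, against 0 over all genes, and -0.01 log2 in erlotinib, against -0.01 over all genes.

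In erlotinib 1 member was called higher and 0 lower in pre-miR-371 cells, against 0.688% and 0.551% of all genes, and without the fold limit 6 were higher and 4 lower, against 6.5% and 9.46% of all genes. At an unadjusted limma p under 0.05 there were 9 higher and 7 lower, but the share of all genes at that limit was not counted. Student's t-test called 1 higher and 0 lower with the fold limit, with its p adjusted or unadjusted. SLC2A3 was 2.24-fold higher in pre-miR-371 cells than in GFP vector cells (1.16 log2, SE 0.08, adjusted p = 2.62e-05), and this held under all 23 alternative settings. PDK1, by 0.35 log2 (SE 0.07, adjusted p = 0.00679), DLAT by 0.24, ENO1 by 0.23, PGAM1 by 0.22 and LDHA by 0.16 were also higher in pre-miR-371 cells; their erlotinib arrays are those given above, and all 5 were genes that fell in erlotinib. PFKFB3 (-0.38 log2, SE 0.07, adjusted p = 0.00467), HK2 (-0.35 log2, SE 0.07, adjusted p = 0.00503), PDK2 (-0.30) and PGM1 (-0.16) were lower in pre-miR-371 cells. PGM1, LDHA and DLAT had adjusted p of 0.0426, 0.0382 and 0.0438, and each was lost on leaving out any 1 of 9 or 10 of the 12 arrays. PGAM1 (adjusted p = 0.0244) and PDK2 (adjusted p = 0.0334) were lost on leaving out any 1 of 4 erlotinib arrays, and ENO1 (adjusted p = 0.0133) on leaving out either of 2. PFKFB3, HK2 and PDK1 were not lost on leaving out any array. They were lost under Student's t-test with Benjamini-Hochberg (adjusted p = 0.0510, 0.0523 and 0.0771). HK2 was also lost with the mean of all probe sets (-0.1 log2, limma adjusted p = 0.340). In erlotinib the arrays of the 2 lines were apart for 10 members that were higher and 6 that were lower in pre-miR-371 cells, against 14.9% and 21.2% of all genes, and in DMSO for 5 and 4 members, against 10.7% and 17.7%.

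The difference between the 2 erlotinib responses, tested as an interaction, passed the adjusted p limit for 1 member, SLC2A3, which was called higher; 0.516% of all genes were called higher and 0.283% lower in that test, and 1.44% and 0.561% without the fold limit. None of the members was called lower. At an unadjusted limma p under 0.05 there were 4 higher and 4 lower, and the share of all genes was not counted there. The SLC2A3 response was 0.78 log2 larger in pre-miR-371 cells than in GFP vector cells (95% interval 0.54 to 1.02, SE 0.11, adjusted p = 0.00720). PFKFB3 came next, with a difference of -0.43 log2 (95% interval -0.65 to -0.21, SE 0.10, adjusted p = 0.0530), and the test was passed under 5 of the alternative settings. The differences for PDK4 (-0.61 log2, SE 0.17, adjusted p = 0.109), ENO2 (0.56 log2, adjusted p = 0.238), PDK2 (-0.34 log2, adjusted p = 0.204), HK2 (-0.29 log2, adjusted p = 0.154) and PDK1 (0.28 log2, adjusted p = 0.195) did not pass. All other members differed by at most 0.22 log2 in either direction. The SE of this difference ranged from 0.07 to 0.21 log2 over the members, so differences of the size seen for most of them were not detectable with 3 arrays a group.

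**Figure D4:**
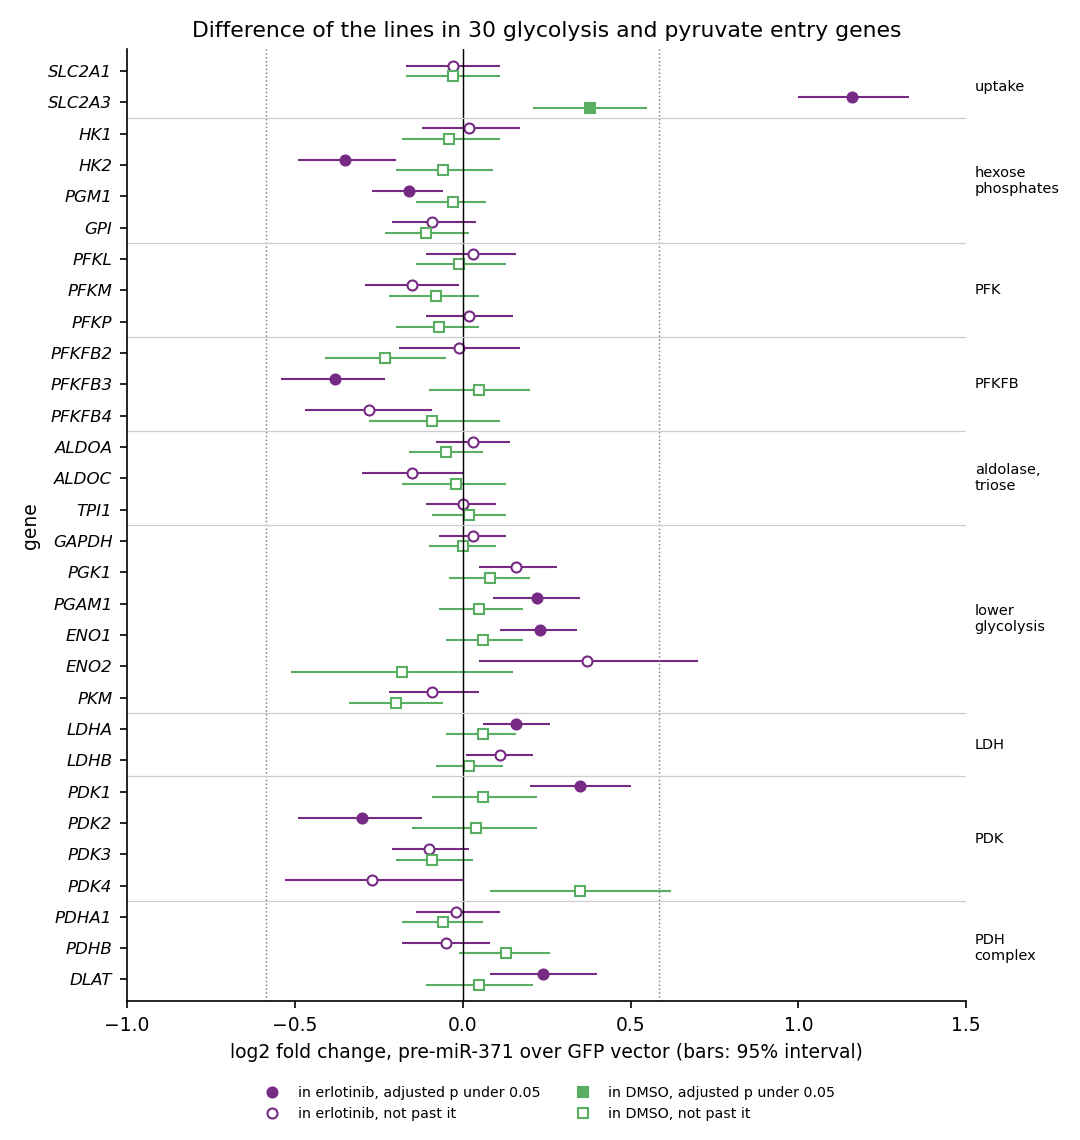
The log2 difference of pre-miR-371 over GFP vector cells is plotted for the 30 members in erlotinib and in DMSO, with 95% intervals, filled marks where the adjusted p was under 0.05 and dotted lines at a fold of 1.5. SLC2A3 in erlotinib (1.16) is the only mark beyond a dotted line, and most others lie within 0.3 log2 of 0.

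Most members had more than 1 probe set, and these gave a check on each gene within the same arrays. The 30 members had 71 probe sets, and 9 members had a single one, among them HK1, ALDOC, PGAM1, LDHA and PFKFB3. Of the 41 probe sets not used above, 23 had a mean of at least 6, and their erlotinib fold change had the sign of the chosen probe set for 22 in pre-miR-371 cells and 21 in GFP vector cells. PDK1 fell by 2.12 log2 in pre-miR-371 cells and by 2.54 log2 in GFP vector cells on a further probe set, while its dimmest had -0.51 log2 in pre-miR-371 cells (adjusted p = 0.0259) and -0.42 log2 in GFP vector cells (adjusted p = 0.0536). PGK1 fell by 0.80 to 0.99 log2 in pre-miR-371 cells and by 0.89 to 1.12 log2 in GFP vector cells on 3 other probe sets with a mean of at least 6, more than on the brightest one, and its remaining 2 were dim. PDK2 moved by 0.28 log2 in pre-miR-371 cells and 0.61 log2 in GFP vector cells on its other probe set.

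PDK3 was the exception in both lines. Besides the probe set used, another one rose, by 0.65 log2 in pre-miR-371 cells and by 0.70 log2 in GFP vector cells. Another 2 fell, by 0.44 and 0.36 log2 in pre-miR-371 cells and by 0.56 and 0.40 log2 in GFP vector cells, and the remaining one had 0.04 log2 in pre-miR-371 cells and -0.39 log2 in GFP vector cells. With the mean over all PDK3 probe sets the fold change was 0.14 log2 in pre-miR-371 cells and 0.03 log2 in GFP vector cells, and no call was left. Which transcripts each of them detects was not examined. SLC2A3 kept its direction on 2 further and dimmer probe sets, which rose by 0.73 and 0.93 log2 in pre-miR-371 cells and by 0.26 and 0.44 log2 in GFP vector cells. On these, pre-miR-371 cells were higher in erlotinib by 0.60 log2 (adjusted p = 0.00241) and 0.89 log2 (adjusted p = 0.000893), and the difference of responses was 0.47 log2 (adjusted p = 0.135) and 0.49 log2 (adjusted p = 0.222). HK2 also fell on 2 further probe sets, by 0.83 and 0.84 log2 in pre-miR-371 cells and by 0.95 and 1.17 log2 in GFP vector cells, but the difference between the lines in erlotinib was not seen there (0.01 log2, adjusted p = 0.955, and 0.05 log2, adjusted p = 0.867).

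**Figure D5:**
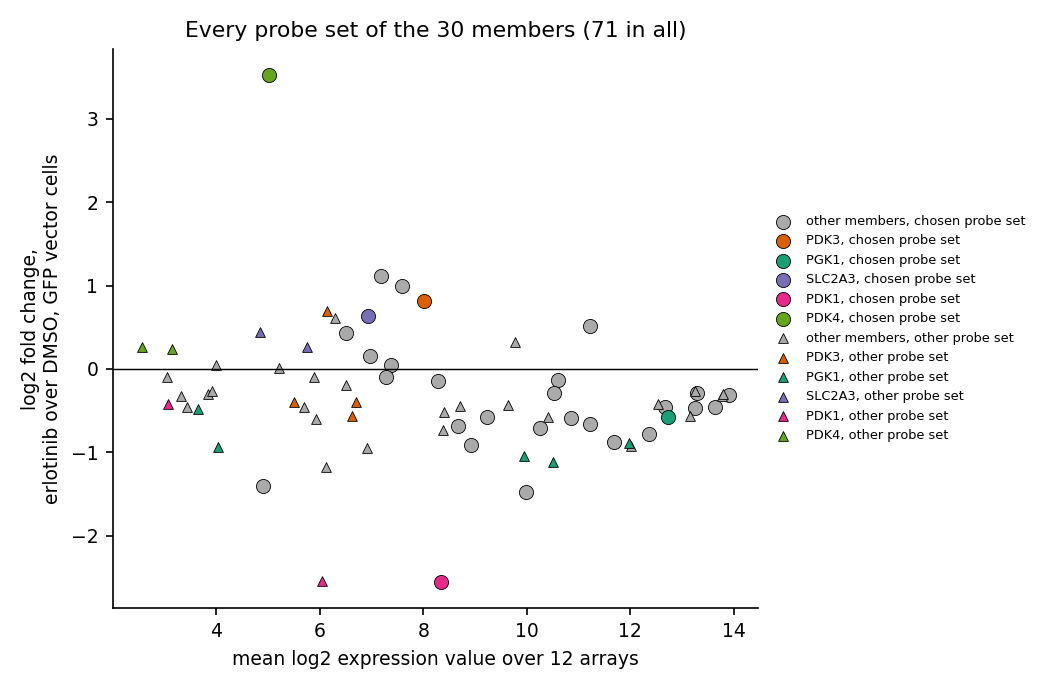
Each of the 71 probe sets of the members is plotted by its mean log2 level over the 12 arrays (x axis) and its log2 fold change of erlotinib over DMSO in GFP vector cells (y axis), with the probe set used for each gene marked. Probe sets of PDK3 lie on both sides of 0, and the other PDK4 probe sets are dim and lie near 0 while the one used lies at 3.53.

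The stretch around the transcription start of 4 members is shown because these genes responded to erlotinib in opposite directions. Each runs 5′ to 3′ along the gene, from 250 bases before the start to 50 after it (RefSeq, GRCh38.p14), with every ACGTG on either strand in capitals, so that CACGT also marks one. ACGTG is the core of the hypoxia response element, and CACGTG, the E-box bound by MYC and related factors, contains it. PDK1 is the entry at chr2:172555840-172556139 (plus strand) and PDK4 that at chr7:95596467-95596766 (minus strand). ALDOC lies at chr17:28576846-28577145 (minus strand) and LDHA at chr11:18394313-18394612 (plus strand).
PDK1: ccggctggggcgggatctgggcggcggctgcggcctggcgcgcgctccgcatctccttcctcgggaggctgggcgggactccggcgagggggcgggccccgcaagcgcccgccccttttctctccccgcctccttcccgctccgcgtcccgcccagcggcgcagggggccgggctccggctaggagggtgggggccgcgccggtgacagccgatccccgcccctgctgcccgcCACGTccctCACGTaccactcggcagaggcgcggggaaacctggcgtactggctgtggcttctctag
PDK4: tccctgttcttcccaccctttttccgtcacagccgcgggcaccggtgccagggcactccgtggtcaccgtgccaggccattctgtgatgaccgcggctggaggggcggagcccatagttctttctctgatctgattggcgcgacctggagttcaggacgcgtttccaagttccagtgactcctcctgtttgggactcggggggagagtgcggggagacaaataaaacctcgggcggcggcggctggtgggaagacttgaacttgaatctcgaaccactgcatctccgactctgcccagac
ALDOC: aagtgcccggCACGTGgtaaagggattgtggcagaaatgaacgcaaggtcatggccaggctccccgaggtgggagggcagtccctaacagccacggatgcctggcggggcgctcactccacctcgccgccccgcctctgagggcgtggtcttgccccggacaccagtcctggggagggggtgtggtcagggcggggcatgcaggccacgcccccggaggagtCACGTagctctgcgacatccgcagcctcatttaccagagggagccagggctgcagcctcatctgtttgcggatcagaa
LDHA: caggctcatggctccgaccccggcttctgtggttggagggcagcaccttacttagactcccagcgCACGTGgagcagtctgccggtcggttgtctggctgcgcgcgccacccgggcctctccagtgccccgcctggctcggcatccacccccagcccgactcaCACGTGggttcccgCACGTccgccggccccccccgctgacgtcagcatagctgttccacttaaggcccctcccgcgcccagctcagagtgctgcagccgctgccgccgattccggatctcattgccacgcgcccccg
On the entries shown, PDK1 and LDHA, which fell, and ALDOC, which rose, each held ACGTG. LDHA and ALDOC also held CACGTG, and PDK4 held neither. The other listed entries of PDK1 and LDHA, not shown, held neither motif. The listed entry of ENO1, which also fell, held neither. The motif was thus found both in members that fell and in one that rose.

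Promoters were listed for 28 of the 30 measured members. Searching both strands, 64.3% of these members had ACGTG in at least 1 listed promoter, against 24.9% of 27305 genes, and 28.6% had CACGTG, against 8.77%. Members had more promoters listed than genes at large, and per promoter the shares were 40.7% of 54 for ACGTG, against 21.4% of 35116, and 14.8% for CACGTG, against 7.26%. TGACTCA, the AP-1 site, was found in 5.56% of the members' promoters, against 4.95%, and GTAAACA, the forkhead site, in 1.85%, against 3.42%. These are counts of letters in a short window and say nothing of binding.

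Neighbouring pathways were read from lists of their genes, and calls in them are read against the shares of all genes given above. Of 26 measured other genes of glycolysis and hexose transport, 5 were called higher and 2 lower in each line. PGM2L1, which makes glucose 1,6-bisphosphate, had 8.54, 8.68 and 8.53 in pre-miR-371 cells given erlotinib, against 5.48, 5.39 and 5.27 in DMSO, and 8.87, 8.80 and 8.88 in GFP vector cells given erlotinib, against 5.30, 4.97 and 5.10 in DMSO. SLC2A12, a glucose carrier of the same family as SLC2A3, had 8.37, 8.44 and 8.30 in pre-miR-371 cells given erlotinib, against 5.11, 5.37 and 4.65 in DMSO, and 8.38, 8.21 and 8.19 in GFP vector cells given erlotinib, against 4.67, 4.47 and 4.12 in DMSO. Both genes therefore rose by more than 3 log2 units in each line, while HKDC1, a hexokinase-like gene, fell by 1.34 log2 in pre-miR-371 cells and by 1.35 log2 in GFP vector cells. SLC2A11 rose by 1.06 log2 in pre-miR-371 cells and by 1.04 log2 in GFP vector cells.

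Of the 8 other measured genes of pyruvate entry, limma called 0 in either line. Without the fold limit 2 rose and 2 fell in pre-miR-371 cells, and 2 rose and 3 fell in GFP vector cells. The counts at an unadjusted limma p under 0.05 were the same, and the share of all genes at that limit was not counted. PDPR, the regulator of the phosphatase that reactivates the complex, rose by 0.46 log2 in each line. MPC1, a subunit of the mitochondrial pyruvate carrier, fell by 0.31 log2 in pre-miR-371 cells and by 0.17 log2 in GFP vector cells. PDHX, which holds the E3 subunit in the complex, fell by 0.21 log2 in pre-miR-371 cells and by 0.31 log2 in GFP vector cells.

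In the pentose phosphate pathway, which branches from glucose 6-phosphate and makes NADPH and ribose, 5 of 8 measured genes rose and 3 fell in each line. With the fold limit 2 were called higher and 2 lower in pre-miR-371 cells and 3 higher and 2 lower in GFP vector cells, and the list medians were 0.45 log2 in pre-miR-371 cells and 0.48 log2 in GFP vector cells. H6PD rose by 1.07 log2 in pre-miR-371 cells and by 1.02 log2 in GFP vector cells, and PGD, another NADPH-making enzyme, rose by 0.89 log2 in pre-miR-371 cells and by 0.99 log2 in GFP vector cells. TIGAR, which degrades fructose 2,6-bisphosphate, fell by 0.98 log2 in pre-miR-371 cells and by 1.21 log2 in GFP vector cells.

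Among 18 measured factors and sensors known to act on glycolytic genes, 4 were called higher and 3 lower in pre-miR-371 cells and 3 higher and 4 lower in GFP vector cells. MYC fell, with -1.64 log2 in pre-miR-371 cells and -1.55 log2 in GFP vector cells, and it was lower in pre-miR-371 cells both in erlotinib (-0.35 log2, adjusted p = 0.00219) and in DMSO (-0.26 log2, adjusted p = 0.0235). PPARA rose by 1.19 log2 in pre-miR-371 cells and by 1.15 log2 in GFP vector cells. Its relative PPARD had means of 8.17 in erlotinib and 8.39 in DMSO in pre-miR-371 cells, and 8.05 and 8.70 in GFP vector cells. FOXO1 had 7.14 and 6.03 in pre-miR-371 cells, and 7.33 and 5.91 in GFP vector cells. FOXO3 had 11.66 and 11.21 in pre-miR-371 cells, and 11.67 and 11.29 in GFP vector cells. Whether any of these bears on PDK4 was not tested. TXNIP, which is induced by glucose and restrains its uptake, rose by 0.73 log2 in pre-miR-371 cells and by 0.90 log2 in GFP vector cells, whereas its relative ARRDC4 had -0.92 log2 in pre-miR-371 cells and -1.05 log2 in GFP vector cells. Of 17 measured hypoxia-induced genes outside the members, 1 was called higher and 4 lower in pre-miR-371 cells and 3 higher and 4 lower in GFP vector cells. SLC6A8, AK4 and BNIP3 fell, by 1.51, 1.31 and 1.31 log2 in pre-miR-371 cells and by 1.71, 1.34 and 1.37 log2 in GFP vector cells, while DDIT4 rose by 1.04 log2 in pre-miR-371 cells and by 1.06 log2 in GFP vector cells.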

How the data were processed

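RNA of PC9 cells was hybridised to Affymetrix HG-U133 Plus 2.0 arrays, 3 for each of 4 groups taken from the labels. The values were deposited by the authors on the log2 scale, made with RMA in the affy package per the submitters' processing notes (versions not given in the sources used here). RMA fits each probe set across arrays after background correction and quantile normalization, which compresses differences at low values. They were used as deposited, without further scaling.

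Of 54675 probe sets, 41097 carried a single gene symbol in the platform table, 1801 several and 11777 none; 62 control probe sets were left out. The probe set with the highest mean stood for each gene, without a filter, giving 19775 genes. Group means were fitted over all 12 arrays with limma 3.58.1 in R 4.3.3 (lmFit, eBayes), p-values were adjusted by Benjamini-Hochberg over all genes, and calls required a fold over 1.5 beside an adjusted p under 0.05, limits taken from the study's methods. The erlotinib response in each line, the lines under each treatment and the interaction were tested. On simulated data for the GFP vector erlotinib comparison (19775 genes, 200 changed), 22%, 70%, 98% and 100% of genes changed by 0.3, 0.6, 1 and 2 log2 passed the adjusted p limit, with 9 false calls. In the data far more genes passed that limit, 26.5% of all genes higher and 23.4% lower. The simulated shares therefore do not describe the power of the real comparison. Precision is limited by 3 arrays a group; SEs of the members lay between 0.05 and 0.15 log2 for a pair of groups.

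Values per array are given for members past both limits with arrays that did not overlap in an erlotinib response, or past the adjusted p limit between the lines or in the interaction. Of each other list, up to 4 genes with the smallest p averaged in rank over both erlotinib responses are named. PPARD, FOXO1 and FOXO3 are given besides, since PDK4 is introduced with PPAR and FOXO factors. The members and lists were chosen with earlier results of these data known. Alternatives were other fold limits, the mean of all probe sets, a level filter, other normalizations and variance models, and only the groups compared. Further ones were Student's t-test (p unadjusted or adjusted by Benjamini-Hochberg), the replicate block and leaving out each array. Sequences came from RefSeq tables (GRCh38.p14).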

Additional observations from a re-analysis of the deposited data

Results flagged for a closer look

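SLC2A3, the GLUT3 glucose carrier, was singled out because its erlotinib response differed between the lines by a test of the difference itself. The response was 0.78 log2 larger in pre-miR-371 cells than in GFP vector cells (95% interval 0.54 to 1.02, limma interaction, adjusted p = 0.00720), with 3 of 3 erlotinib arrays above all DMSO arrays in each line. Over the alternative settings the difference lay between 0.58 and 0.83 log2, and leaving out single arrays gave adjusted p of 0.0128 to 0.0254. On its other 2 probe sets the difference was 0.47 log2 (adjusted p = 0.135) and 0.49 log2 (adjusted p = 0.222). The ACTB 3′ over 5′ excess was also highest in pre-miR-371 cells given erlotinib, at 0.42 to 0.51 log2, and its part in this result was not tested.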

How the results depend on the processing

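Of 66 member results past the adjusted p limit, 49 stayed past it with the same sign under every alternative run. The other 17 missed it or changed sign under at least 1. The fold limit played no part in this count, so a result that stayed could still miss the fold limit. With the mean of all probe sets, 3 members were called higher in erlotinib in pre-miR-371 cells (SLC2A3, ALDOC and PDK4). In GFP vector cells 3 were called higher (ALDOC, PDK2 and PDK4). Of all 19775 genes, that mean called 1852 higher in pre-miR-371 cells and 2184 in GFP vector cells. The interaction called 0 members and 71 of all genes higher. PFKFB2 in pre-miR-371 cells turned to -0.03 log2. That mean also reduced the fall of PFKP to 0.69 log2 in pre-miR-371 cells and 0.78 in GFP vector cells and the rise of PDK4 to 1.05 and 1.34 log2. A fold limit of 2 left 2 members higher and 3 lower in each line and 0 in the interaction. Of all 19775 genes it left 1184 higher and 755 lower in pre-miR-371 cells. It left 1422 higher and 1079 lower in GFP vector cells, and 5 and 8 in the interaction. Without a fold limit 8 rose and 20 fell in pre-miR-371 cells, 19 fell in GFP vector cells, 6 were higher and 4 lower between the lines in erlotinib, and 1 was higher in DMSO. A variance trend with robust fitting, or array weights, called 1 member lower in the interaction, PDK4 (adjusted p = 0.0491 and 0.0342). Of all 19775 genes, these 2 settings called 105 and 130 lower there. Leaving out single arrays gave 5 to 5 members called higher and 8 to 9 lower in pre-miR-371 cells, 5 to 5 higher and 10 to 12 lower in GFP vector cells, 1 to 1 higher and 0 to 0 lower between the lines in erlotinib, 0 to 0 either way in DMSO, and 1 to 1 higher and 0 to 0 lower in the interaction. ENO1 missed the fold limit in pre-miR-371 cells without erlotinib replicate 3 of that line, and PDHA1 in GFP vector cells without DMSO replicate 1 or erlotinib replicate 3 of that line, while PGK1 or DLAT passed it without 1 of several GFP vector arrays. Between the lines in erlotinib, PGAM1 and PDK2 were lost without erlotinib replicate 2 or 3 of pre-miR-371 cells, PGAM1 also without GFP vector erlotinib replicate 2 or 3, PDK2 without GFP vector erlotinib replicate 1 or 2, and ENO1 without pre-miR-371 erlotinib replicate 2 or GFP vector erlotinib replicate 1. PGM1, LDHA and DLAT were lost without 1 of 10, 9 and 9 arrays, with adjusted p of up to 0.114, 0.118 and 0.151. In DMSO, SLC2A3 was lost without GFP vector replicate 1 or 2 or pre-miR-371 replicate 1 or 3 (adjusted p up to 0.0828). The erlotinib results of PKM in pre-miR-371 cells and PGM1 in GFP vector cells each missed the adjusted p limit without any 1 erlotinib array of that line. The cause of these changes was not tested. The labels do not say whether the replicate numbers pair the arrays. Over 18 pairs with the same number r was -0.057 to 0.198, 7 of them over 0.1. Over pairs with different numbers r was -0.203 to 0.108. With the replicate block the counts were 5 higher and 9 lower in pre-miR-371 cells, 5 and 10 in GFP vector cells, 1 and 0 between the lines in erlotinib, 0 and 0 in DMSO, and 1 and 0 in the interaction (SLC2A3, adjusted p = 0.0116), and 10 of 12 arrays correlated best with their own number. Neither repeated quantile normalization nor centring the arrays on their medians moved the median of all genes by more than 0.05 log2. The other settings were not checked for this. Low values have no detection call, which limits PDK4 in DMSO and ENO2; neither enters the setting restricted to genes with a mean of at least 6.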

Other observations

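Downstream of pyruvate, single genes of the tricarboxylic acid cycle moved in both directions in erlotinib, while the list median stayed near that of all genes. It was -0.04 log2 in pre-miR-371 cells, against -0.03 over all genes, and -0.02 log2 in GFP vector cells, against 0. Of 15 measured genes 1 was called higher and 2 lower in pre-miR-371 cells, where 12.6% and 9.33% of all genes were called. In GFP vector cells 2 were called higher and 3 lower, where 14.1% and 11.7% of all genes were called. IDH2, the mitochondrial NADP-dependent isocitrate dehydrogenase, rose by 1.11 log2 in pre-miR-371 cells and by 1.19 log2 in GFP vector cells. IDH3A, a subunit of the NAD-dependent enzyme of the same step, fell by 0.75 log2 in pre-miR-371 cells and by 0.95 log2 in GFP vector cells, and CS, citrate synthase, fell by 0.68 log2 in pre-miR-371 cells and by 0.74 log2 in GFP vector cells.

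Of 14 genes of gluconeogenesis and glycogen metabolism, 1 was called higher and 2 lower in pre-miR-371 cells. In GFP vector cells 2 were called higher and 3 lower. These calls, and those of the serine genes below, are read against the same shares of all genes. PCK2, the mitochondrial phosphoenolpyruvate carboxykinase, rose by 1.24 log2 in pre-miR-371 cells and by 1.34 log2 in GFP vector cells. GBE1, the glycogen branching enzyme, fell by 0.78 log2 in pre-miR-371 cells and by 0.88 log2 in GFP vector cells. PYGL, a glycogen phosphorylase, fell by 0.72 log2 in pre-miR-371 cells and by 0.82 log2 in GFP vector cells. Of 8 genes of serine synthesis and its folate branch, which draws on 3-phosphoglycerate, 1 was called higher and 0 lower in pre-miR-371 cells. In GFP vector cells 0 were called higher and 1 lower. At an unadjusted limma p under 0.05, 3 were higher and 2 lower in each line, with the share of all genes not counted. PHGDH rose by 0.60 log2 in pre-miR-371 cells and by 0.46 log2 in GFP vector cells. PSPH, the last enzyme of serine synthesis, fell by 0.77 log2 in GFP vector cells, had a fold change of -0.30 log2 in pre-miR-371 cells (adjusted p = 0.0854), and was 0.74 log2 higher in pre-miR-371 cells than in GFP vector cells in erlotinib (adjusted p = 0.00359).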
